A study of Mus musculus with 12 samples.

Results

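Transforming growth factor β (TGF-β) signaling was examined through 10 genes chosen by name: the ligand genes *Tgfb1*, *Tgfb2* and *Tgfb3*, the receptor genes *Tgfbr1*, *Tgfbr2* and *Tgfbr3*, and the SMAD genes *Smad2*, *Smad3*, *Smad4* and *Smad7*. Each symbol matched 1 row of the count table, which holds 55450 genes, and all 10 were among the 20612 genes that passed a filter on low counts and were tested. TGF-β ligands are secreted in a latent complex and, once released, bring together the type II receptor (*Tgfbr2*) and the type I receptor (*Tgfbr1*), whose kinase phosphorylates SMAD2 and SMAD3. These join SMAD4 and act in the nucleus, and SMAD7 is induced as a feedback inhibitor. In the lung the pathway is known for its part in epithelial differentiation, fibrosis and airway remodeling.

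RNA sequencing was done on type II alveolar epithelial (AT2) cells, which make surfactant and give rise to the flat type I (AT1) cells of the alveolus. The cells came from *AhR f/f* mice (control cells, labeled WT), whose gene for the aryl hydrocarbon receptor (AhR) is floxed, and from *Sftpc-Cre;AhR f/f* animals (knockout cells, labeled AhR). In the latter Cre is made from the *Sftpc* locus and deletes AhR where surfactant protein C is expressed, so that both genotypes carry the floxed allele and the controls lack Cre. Loss of AhR and presence of Cre therefore cannot be told apart between the genotypes. The line with Cre was on a C57BL/6 background, and mice of both genotypes were 6 to 8 weeks old and matched by age and sex. Lung digests were depleted of cells bearing leukocyte and other surface proteins, plated on collagen, and given PBS or 50 µg/ml of an extract of cockroach (CRE) for 24 h, giving 4 groups of 3 libraries. Total counts per library lay between 68878065 and 80935797. Nothing in the labels says that the libraries of a group came from separate mice, so p-values measure the spread between these cultures.

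The labels were checked against marker genes, with levels as CPM (counts scaled to TMM-normalized library size). Surfactant protein C (*Sftpc*), a marker of AT2 cells, had 3086 to 6492 CPM over the 12 libraries, and no AT2 marker of the 10 listed was at 0. The club cell gene *Scgb1a1* was also abundant, at 3959 to 8069 CPM, whereas the leukocyte gene *Ptprc*, which encodes the CD45 protein used for depletion, had 2.19 to 67.5 CPM. The AhR target *Cyp1b1* had 344, 404 and 404 CPM in PBS-treated control cells and 59.0, 31.7 and 43.3 CPM in PBS-treated knockout cells. With CRE it had 349, 465 and 460 CPM against 63.9, 33.8 and 43.7 CPM, so that the genotypes were far apart under both treatments. *Cyp1b1* was lower in knockout cells with a log2 fold change of −3.10 with PBS and −3.17 with CRE (edgeR adjusted p = 8.8e-04 and 7.1e-04). The *Ahr* transcript itself lay between 37.7 and 56.2 CPM in all 12 libraries, and its log2 fold change between genotypes was 0.04 with PBS and −0.18 with CRE (edgeR adjusted p = 0.990 and 0.964). A gene-level count does not show whether the floxed exon was still read, so the total *Ahr* count does not check the deletion.

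The 10 genes spanned a wide range of levels per length, given as FPKM (fragments scaled to gene length and depth). *Tgfbr2* was highest (27.2 to 32.7 FPKM over 12 libraries), followed by *Smad3* (22.7 to 27.4 FPKM), *Smad4* (20.4 to 25.6 FPKM) and *Tgfb3* (12.4 to 27.0 FPKM). *Tgfbr1* (8.70 to 12.2 FPKM), *Smad7* (3.60 to 11.0 FPKM), *Tgfb1* (5.42 to 8.98 FPKM) and *Smad2* (4.73 to 5.61 FPKM) came next. *Tgfb2* (2.06 to 7.77 FPKM) and *Tgfbr3* (0.682 to 2.56 FPKM) were lowest. Neighbours in this order of mean level overlapped in range, except *Tgfb3* and *Tgfbr1*. The levels of *Tgfbr2*, *Smad2* and *Smad3* varied little between libraries, with a highest FPKM of 1.20, 1.19 and 1.21 times the lowest, while *Tgfb2* and *Tgfbr3* varied most, at 3.77 and 3.75 times.

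The comparisons asked how the ligands, receptors and SMADs responded to CRE and to loss of AhR in AT2 cells. *Tgfb3*, at 12:86056745-86079041 of GRCm38, was the most abundant ligand transcript per length in every library. In PBS-treated control cells it took 61.4%, 74.0% and 69.3% of the summed FPKM of the ligand genes, and *Tgfb2* took 9.18%, 6.76% and 10.4%. In CRE-treated control cells the share of *Tgfb3* was 49.8%, 60.5% and 54.9% and that of *Tgfb2* was 17.2%, 15.2% and 20.2%. PBS-treated knockout cells had a *Tgfb2* share of 12.5 ± 3.30% (mean ± SD, n = 3) and CRE-treated ones 21.9 ± 3.91% (n = 3). The summed ligand FPKM was 29.7 ± 1.39 with PBS and 23.4 ± 1.32 with CRE in control cells, and 32.8 ± 4.29 and 29.4 ± 3.43 in knockout cells (mean ± SD, n = 3 each). These shares are a description and were not tested.

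**Figure D1:**
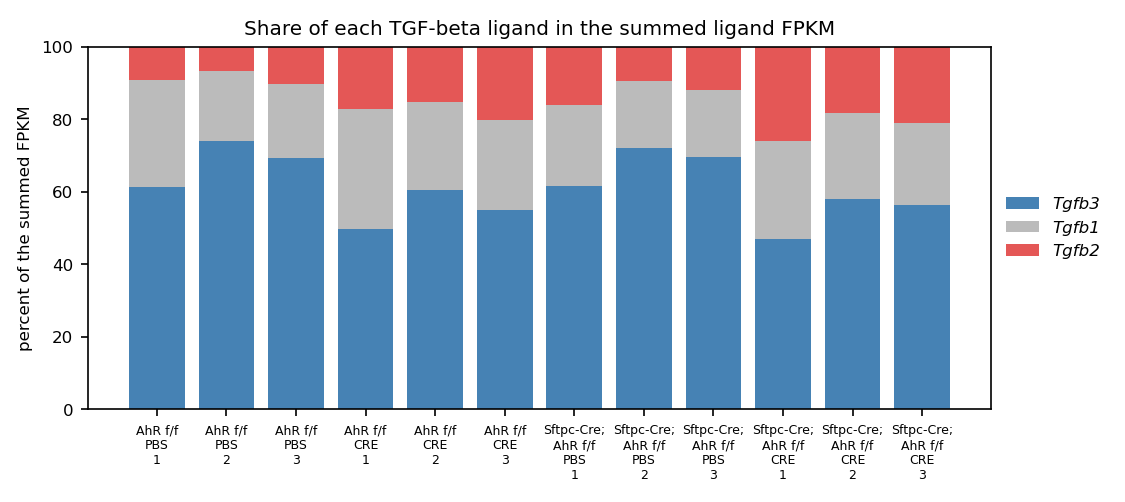
Each bar is 1 library, split by the percent of the summed FPKM of the ligand genes that came from *Tgfb3*, *Tgfb1* and *Tgfb2*. In each genotype every CRE-treated library had a larger *Tgfb2* share than every PBS-treated library; in knockout cells the PBS shares reached 16.0% and the CRE shares began at 18.4%.

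*Tgfb2*, an isoform that epithelial cells make and that is known for its part in development and fibrosis, lies at 1:186622792-186705989 (GRCm38). In control cells it had 17.8, 13.6 and 19.1 CPM with PBS and 27.1, 22.7 and 30.0 CPM with CRE. In knockout cells it had 31.4, 22.7 and 22.9 CPM with PBS and 48.8, 38.9 and 36.2 CPM with CRE. The lowest CRE-treated library lay above the highest PBS-treated library in each genotype, and CRE was higher in 6 of 6 pairs of libraries with the same genotype and replicate number. *Tgfb3*, the isoform known from palate and lung development, showed the opposite direction. In control cells it had 69.4, 86.8 and 74.4 CPM with PBS and 45.9, 52.8 and 47.6 CPM with CRE. In knockout cells it had 70.2, 100.2 and 77.3 CPM with PBS and 51.0, 71.5 and 56.3 CPM with CRE. The groups did not overlap in control cells, overlapped by 1 library in knockout cells, and CRE was lower in 6 of 6 pairs.

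Averaged over both genotypes, CRE raised *Tgfb2* by a log2 fold change of 0.67 (SE 0.13, 95% interval 0.39 to 0.96, edgeR adjusted p = 0.0358) and lowered *Tgfb3* by −0.56 (SE 0.11, 95% interval −0.81 to −0.32, edgeR adjusted p = 0.0391). These were the members called in the mean CRE response, 2 of 10, where 1.10% of the 20612 genes tested were called. Within a genotype edgeR called 0 of 10 members for CRE against PBS, beside 0.233% of genes in control cells and 0.262% in knockout cells. At an unadjusted p under 0.05 the members were 3 and 2 (beside 9.36% and 6.48% of genes), and DESeq2 called 2 and 1 (beside 1.98% and 1.23%). In the mean CRE response 3 members had an unadjusted p under 0.05, beside 11.1% of genes, and DESeq2 called 2, beside 3.59%. The log2 fold change of *Tgfb2* was 0.66 in control cells and 0.69 in knockout cells (edgeR adjusted p = 0.243 and 0.305), and that of *Tgfb3* was −0.66 and −0.47 (edgeR adjusted p = 0.171 and 0.536). The difference between genotypes in the CRE response was 0.02 for *Tgfb2* (95% interval −0.54 to 0.59) and 0.19 for *Tgfb3* (95% interval −0.30 to 0.67). In that interaction edgeR called 0 of 10 members and 0.00% of genes. DESeq2 likewise called 0 of 10 members, beside 0.112% of genes, and 0 had an unadjusted p under 0.05 in edgeR without a replicate block, beside 3.70%.

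Libraries with the same genotype and replicate number deviated together, and with these pairs as a block both ligands passed in each genotype. *Tgfb2* then had log2 fold changes of 0.67 and 0.69 (edgeR adjusted p = 0.00457 and 0.00439 with the replicate block), and *Tgfb3* −0.65 and −0.47 (edgeR adjusted p = 0.00182 and 0.00572 with the replicate block). So 2 of 10 members were called in each genotype with the block, beside 3.63% of genes in control cells and 2.13% in knockout cells. Over both genotypes the block gave 3 of 10 members beside 6.59% of genes, the additional member being *Tgfbr2*. Leaving out the pair of replicate 1 of control cells gave 4 members there and leaving out any other pair gave 2. In the interaction the block called 0 of 10 members. *Tgfb3* had a log2 fold change of 0.19 there (edgeR unadjusted p = 0.0260, adjusted p = 0.511 with the block). *Tgfb1* had 0.24 (edgeR unadjusted p = 0.0163, adjusted p = 0.507 with the block). In knockout cells the blocked *Tgfb3* call was lost without the pair of replicate 2 (edgeR adjusted p = 0.0631) and without that of replicate 3 (0.0576). By the rule of the study (limma-trend, unadjusted p below 0.05 with a log2 fold change beyond 0.5 either way) *Tgfb2* and *Tgfb3* passed in control cells, where 4.11% of genes did, and *Tgfb2* in knockout cells, where 3.38% did. Both passed it in the mean CRE response, beside 4.02% of genes.

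Without the block, the calls in the mean CRE response were close to the threshold. Leaving out 1 library at a time put the adjusted p of *Tgfb2* above 0.05 in 10 of 12 fits (edgeR, range 0.0249 to 0.0966), the exceptions being the fits without replicate 2 of CRE-treated control cells (0.0479) and without replicate 1 of PBS-treated knockout cells (0.0249). For *Tgfb3* it was above 0.05 in 9 of 12 fits (edgeR, range 0.0220 to 0.116), the exceptions being those without replicate 1 of either PBS group (0.0477 in control, 0.0340 in knockout cells) and without replicate 2 of CRE-treated knockout cells (0.0220).

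**Figure D2:**
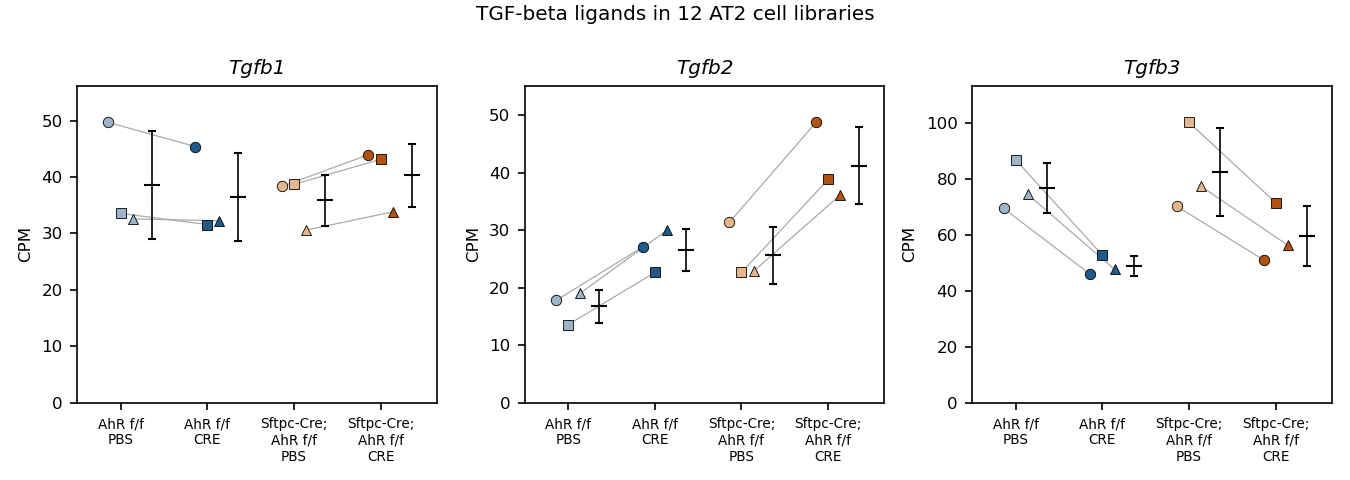
CPM of the ligand genes by group, 1 symbol per library (circle, square and triangle for replicates 1, 2 and 3), with grey lines joining libraries of the same genotype and replicate number and the mean ± SD of 3 libraries in black. *Tgfb2* was higher and *Tgfb3* lower with CRE along all 6 lines, and *Tgfb1* lay between 30.6 and 49.7 CPM.

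AT1 markers moved with *Tgfb3*. In the mean CRE response 3 of 8 AT1 markers were called lower: *Ager* (log2 fold change −0.83), *Rtkn2* (−1.28) and *Clic5* (−0.45), with edgeR adjusted p of 0.0472, 0.0404 and 0.0291, beside 1.10% of genes. At an unadjusted p under 0.05 they were 5 of 8, beside 11.1% of genes, DESeq2 called 5, beside 3.59%, and the replicate block 5, all lower, beside 6.59%, of which 4 held without any 1 pair. All 8 had a negative log2 fold change, with a median of −0.51 against −0.00 over all genes tested, and none was at 0 in any library. The summed AT1 markers, of which *Clic5* was most abundant, had 1669, 1991 and 2107 CPM with PBS and 1119, 1351 and 1403 CPM with CRE in control cells. In knockout cells they had 1769, 2398 and 2030 CPM with PBS and 1295, 1657 and 1459 CPM with CRE. Of 10 AT2 markers, *Etv5* was called lower (log2 fold change −0.47, edgeR adjusted p = 0.0185), with 3 at an unadjusted p under 0.05 and 1 by DESeq2. With the replicate block edgeR called 5 of 10 in the mean CRE response, 3 lower and 2 higher, of which 1 lower and 2 higher held without any 1 pair, and 4 in control and 3 in knockout cells, beside 3.63% and 2.13% of genes. The sum of the AT2 markers was lower with CRE in 3 of 3 control pairs and higher in 3 of 3 knockout pairs. In the mean CRE response the block called 1 of 6 club and ciliated cell markers, *Scgb1a1*, lower. Its log2 fold change was −0.25 (edgeR adjusted p = 0.00482 with the block), and it held without any 1 pair. The sum of that list, most of it *Scgb1a1*, was lower with CRE in every pair. Of the 6 markers, 5 had a negative log2 fold change for CRE in control cells (median −0.10). In knockout cells 5 of 6 had a positive one (median 0.06). Of 10 leukocyte markers the block called 1 higher and 2 lower, beside 6.59% of genes. *Adgre1*, higher (1.92, edgeR adjusted p = 0.00139 with the block), held without any 1 pair. Without the block edgeR called 0 on both lists. Fewer cells of a type and less RNA per cell cannot be told apart in such libraries, and the part of these markers in the *Tgfb3* result was not tested. Without the block these marker calls were also near the threshold: leaving out 1 library took the adjusted p above 0.05 in 9 of 12 fits for *Ager* (edgeR, up to 0.137) and for *Rtkn2* (up to 0.114), in 8 for *Clic5* (up to 0.0888) and in 5 for *Etv5* (up to 0.0618).

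*Tgfb1*, the isoform best known in fibrosis and immune regulation, lies at 7:25687002-25705077 (GRCm38). It had 49.7, 33.6 and 32.6 CPM with PBS and 45.4, 31.6 and 32.3 CPM with CRE in control cells. In knockout cells it had 38.3, 38.7 and 30.6 CPM with PBS and 44.0, 43.2 and 33.8 CPM with CRE. Every pair of groups overlapped, and replicate 1 was highest in both control groups. The log2 fold change for CRE was −0.08 (95% interval −0.52 to 0.35) in control cells and 0.17 (95% interval −0.27 to 0.61) in knockout cells, and that of knockout against control cells was −0.11 with PBS (95% interval −0.54 to 0.33) and 0.15 with CRE (95% interval −0.29 to 0.58). With PBS this direction turned to 0.12 without replicate 1 of PBS-treated control cells, and in the CRE response of control cells to 0.14 without the same library and 0.01 without replicate 2 of CRE-treated cells, fits that leave 1 library without its pair. Within pairs CRE was lower in 3 of 3 control pairs (log2 ratio −0.13, −0.09 and −0.01) and higher in 3 of 3 knockout pairs (0.20, 0.16 and 0.14), and with the replicate block the log2 fold change was −0.08 and 0.17 (edgeR adjusted p = 0.515 and 0.227). Leukocyte markers were also highest in replicate 1 of both control groups. The 10 markers, of which *Cd68* was most abundant and *Siglecf* at 0 in 2 libraries, summed to 249, 74.2 and 37.2 CPM with PBS and 246, 78.0 and 39.1 CPM with CRE in control cells. In knockout cells they summed to 186, 59.8 and 71.0 CPM with PBS and 174, 57.7 and 67.1 CPM with CRE. Replicate 2 of knockout cells was thus lowest in these markers under both treatments, with *Tgfb1* at 38.7 and 43.2 CPM, near replicate 1 (38.3 and 44.0 CPM). In the 8 libraries of replicates 2 and 3, chosen after seeing these values, the *Tgfb1* log2 fold change between genotypes with PBS was 0.07. The part of these markers in the *Tgfb1* levels was not tested.

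The difference in *Tgfb2* between genotypes did not pass adjustment. With PBS the 3 knockout libraries (22.7 to 31.4 CPM) lay above the 3 control libraries (13.6 to 19.1 CPM), and with CRE likewise (36.2 to 48.8 against 22.7 to 30.0 CPM). The log2 fold change was 0.61 with PBS and 0.63 with CRE (edgeR unadjusted p = 0.00686 and 0.00534, adjusted p = 0.395 and 0.526). Its mean over both treatments was 0.62 (SE 0.13, 95% interval 0.34 to 0.91, edgeR adjusted p = 0.0744), and DESeq2 called it there (adjusted p = 4.7e-04). edgeR called 0 of 10 members with PBS, with CRE and in the mean deletion effect, beside 0.150%, 0.170% and 0.631% of genes. In each of these 3 contrasts 1 member, *Tgfb2*, had an unadjusted p under 0.05, beside 8.37%, 5.95% and 9.93% of genes. DESeq2 called 0, 0 and 1 members, beside 1.18%, 0.844% and 2.53% of genes. *Tgfb2* passed the rule of the study with PBS, with CRE and in the mean deletion effect, where 4.10%, 3.42% and 4.11% of genes did. For *Tgfb3* the mean log2 fold change between genotypes was 0.20 (95% interval −0.05 to 0.44). The 95% intervals of the mean deletion effect included 0 for every member but *Tgfb2*. This contrast counts the PBS and the CRE library of a pair as independent, so its p-values take 6 libraries against 6 where there are 3 pairs against 3. With the 2 libraries of each pair summed, a fit chosen after seeing the data, edgeR called 0 of 10 members beside 0.0781% of genes, and *Tgfb2* (log2 fold change 0.62, edgeR adjusted p = 0.653) was the 1 member at an unadjusted p under 0.05, beside 5.26% of genes.

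The knockout libraries highest in *Tgfb2*, replicate 1 under both treatments, were lowest in AT2 markers and highest in club and ciliated cell markers. The 10 AT2 markers, of which *Sftpc* was most abundant, summed to 12652, 13665 and 12014 CPM with PBS and 11368, 11833 and 10654 CPM with CRE in control cells. In knockout cells they summed to 7276, 10153 and 13530 CPM with PBS and 7520, 10336 and 14010 CPM with CRE. The log2 fold change between genotypes was negative for 8 of 10 with PBS, with CRE and in the mean deletion effect (median −0.21, −0.05 and −0.14), and edgeR called 0, with 0 at an unadjusted p under 0.05 and 0 by DESeq2, in contrasts whose shares of all genes are given above. The 6 club and ciliated cell markers, of which *Scgb1a1* was most abundant and none at 0, summed to 4797, 5418 and 7734 CPM with PBS and 4063, 4063 and 6237 CPM with CRE in control cells. In knockout cells they summed to 8280, 5066 and 4952 CPM with PBS and 6889, 4733 and 4427 CPM with CRE. Of these 6, 4 had a positive log2 fold change between genotypes with PBS, 5 with CRE and 5 in the mean deletion effect, and edgeR called 0 (0, 2 and 2 at an unadjusted p under 0.05, and 0, 0 and 1 by DESeq2). In the 8 libraries of replicates 2 and 3 the log2 fold change of *Tgfb2* between genotypes was 0.49 with PBS, 0.50 with CRE and 0.49 in the mean deletion effect (edgeR adjusted p = 0.627, 0.825 and 0.342). The part of these markers in the *Tgfb2* difference between genotypes was not tested.

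**Figure D3:**
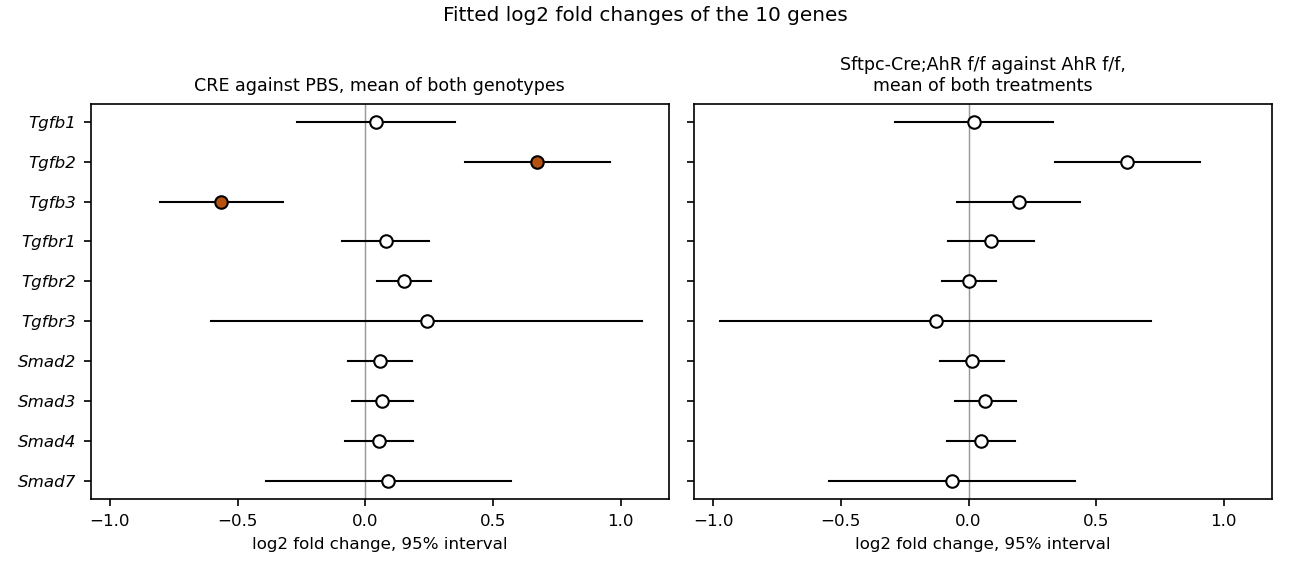
Fitted log2 fold changes (points) with 95% intervals (lines) of the 10 genes for CRE against PBS averaged over genotypes (left) and for knockout against control cells averaged over treatments (right), from all 12 libraries. Filled points passed an adjusted p of 0.05: *Tgfb2* at 0.67 and *Tgfb3* at −0.56 for CRE.

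The start of *Tgfb1* and of *Tgfb2* is shown because these ligands sit at the center of the comparison of genotypes and the protein deleted is a transcription factor. Of the 10 members, 5 had an entry in the RefSeq promoter table (GRCm38.p6): *Tgfb1*, *Tgfb2*, *Tgfbr1*, *Tgfbr2* and *Smad3*. The 250 bases before the start of transcription were searched on both strands for GCGTG, the core bound by AhR with its partner ARNT. They were also searched for CAGAC, a core bound by SMADs, and for an E-box, CACGTG. Of 32841 promoter windows of that length, 28.2% held the AhR core, 42.2% the SMAD core and 6.02% the E-box on either strand. Capitals mark matches on either strand, so that the AhR core of *Tgfb1* reads in reverse complement.
*Tgfb1*, chr7:25686752-25687001, plus strand: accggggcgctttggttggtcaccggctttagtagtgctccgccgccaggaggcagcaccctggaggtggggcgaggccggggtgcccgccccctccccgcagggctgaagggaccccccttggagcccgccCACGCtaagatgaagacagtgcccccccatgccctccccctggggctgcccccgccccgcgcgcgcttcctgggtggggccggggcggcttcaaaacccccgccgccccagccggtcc
*Tgfb2*, chr1:186705990-186706239, minus strand: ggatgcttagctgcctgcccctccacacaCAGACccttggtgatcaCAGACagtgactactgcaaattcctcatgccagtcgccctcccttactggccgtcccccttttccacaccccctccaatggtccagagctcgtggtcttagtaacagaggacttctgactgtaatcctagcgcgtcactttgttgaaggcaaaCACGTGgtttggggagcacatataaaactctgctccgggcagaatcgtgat
The *Tgfb1* window held 1 match to the AhR core and 0 to the others, and the *Tgfb2* window held 0 matches to the AhR core, 2 to the SMAD core and 1 to the E-box. Of the other members with an entry, *Smad3* held 2 matches to the AhR core, *Tgfbr2* held 1 to the AhR core and 1 to the SMAD core, and *Tgfbr1*, with 2 starts, held 2 to the AhR core in one window and 1 to the SMAD core in the other. The AhR core was thus present in 4 of 5 members, *Tgfbr1* counting through 1 of its 2 windows. The 28.2% above is a share of windows and not of genes. Nothing was tested from these matches. The antisense gene *Gm29491* runs across the start of *Tgfb2* on the other strand and shares 124 exonic bases with it, with a median of 2.00 counts against 2021 for *Tgfb2*.

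*Tgfbr2*, the ligand-binding type II receptor, had 246, 253 and 254 CPM with PBS and 267, 303 and 296 CPM with CRE in control cells, without overlap. In knockout cells it had 279, 247 and 254 CPM with PBS and 287, 268 and 283 CPM with CRE, with overlap. CRE was higher in 6 of 6 pairs, and the mean CRE response was a log2 fold change of 0.15 (95% interval 0.05 to 0.26), which edgeR did not call (adjusted p = 0.230) unless the pairs were a block (adjusted p = 0.0336). The blocked call was lost without 1 pair in 5 of 6 fits (edgeR adjusted p 0.0532 to 0.124) and held without the pair of replicate 1 of control cells (0.0419). *Tgfbr1*, the type I receptor that carries the signaling kinase, had group means of 70.8 ± 5.26 CPM with PBS and 78.2 ± 2.01 CPM with CRE in control cells and 78.6 ± 6.69 and 79.5 ± 12.2 CPM in knockout cells (mean ± SD, n = 3 each). *Tgfbr3*, or betaglycan, is a co-receptor that presents TGF-β2 to the signaling receptors. It had 18.4, 5.10 and 5.68 CPM with PBS and 17.6, 8.45 and 9.15 CPM with CRE in control cells. In knockout cells it had 8.57, 13.4 and 5.30 CPM with PBS and 9.13, 15.3 and 7.07 CPM with CRE. Its spread within a group exceeded any difference between groups, and the libraries high in it were replicate 1 of control and replicate 2 of knockout cells under both treatments. The 10 fibroblast and smooth muscle markers, of which *Acta2* was most abundant and none at 0, were also highest in those libraries, with sums of 330, 140 and 251 CPM with PBS and 295, 126 and 228 CPM with CRE in control cells, and 194, 355 and 139 CPM with PBS and 173, 310 and 143 CPM with CRE in knockout cells. The part of these markers in the *Tgfbr3* levels was not tested.

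Among the SMADs, *Smad3* and *Smad2*, the receptor-activated members, lay at 141 to 169 CPM and at 44.8 to 56.6 CPM over the 12 libraries. CRE was higher in 6 of 6 pairs for *Smad3* (log2 ratio 0.01 to 0.14), in 5 of 6 for *Smad2*, *Smad4* and *Tgfbr3*, in 4 of 6 for *Tgfbr1* and in 2 of 6 for *Smad7*, and none of these passed in the mean CRE response with or without the block. *Smad4*, the partner shared with bone morphogenetic protein (BMP) signaling, had 87.4 ± 3.70 CPM with PBS and 95.1 ± 4.25 CPM with CRE in control cells, without overlap, and 94.9 ± 8.77 and 93.7 ± 8.50 CPM in knockout cells (mean ± SD, n = 3 each). *Smad7*, the feedback inhibitor, had 48.6, 17.9 and 55.6 CPM in PBS-treated knockout cells and 39.0 to 50.3 CPM in the other 9 libraries. Replicate 2 of that group stood apart, and without it the log2 fold change for CRE in knockout cells went from 0.25 to −0.10 and that between genotypes with PBS from −0.23 to 0.13. The members whose groups did not overlap for CRE against PBS were 5 of 10 in control cells (*Tgfb2*, *Tgfb3*, *Tgfbr1*, *Tgfbr2* and *Smad4*), beside 16.5% of genes, and 1 of 10 in knockout cells (*Tgfb2*), beside 11.8%. Between genotypes it was 1 of 10 (*Tgfb2*) with PBS, beside 14.0% of genes, and 1 of 10 (*Tgfb2*) with CRE, beside 11.0%. Apart from *Tgfb2* and *Tgfb3*, the mean CRE response of the 8 remaining members ran from a log2 fold change of 0.04 to 0.24.

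**Figure D4:**
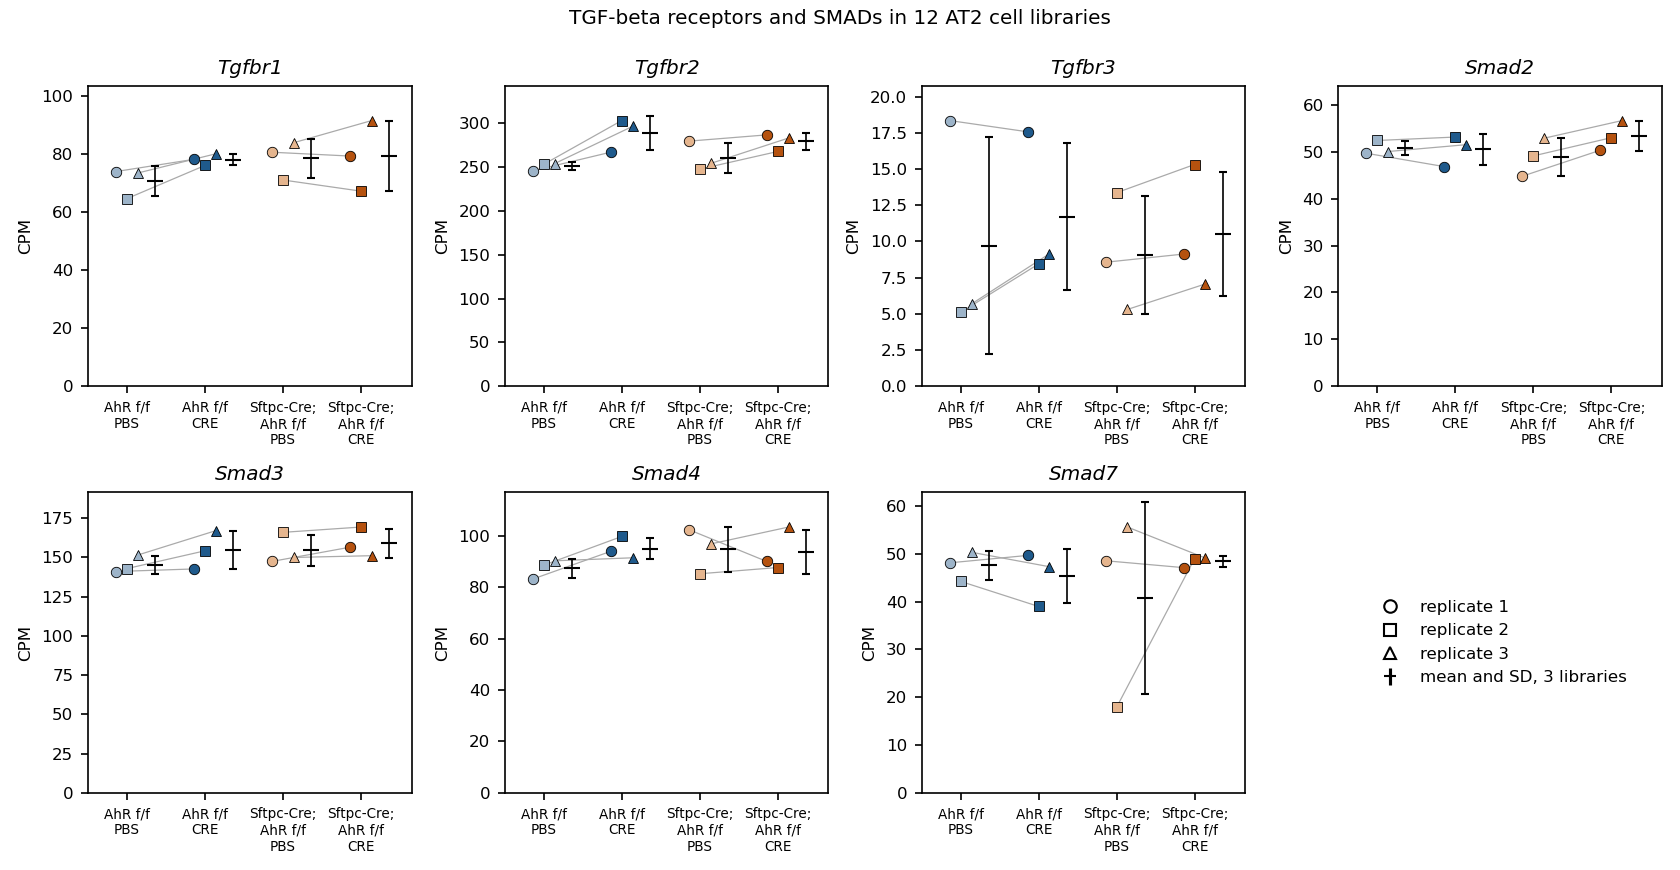
CPM of the receptor and SMAD genes by group, drawn as for the ligands, each vertical axis starting at 0. *Tgfbr3* and, in PBS-treated knockout cells, *Smad7* had libraries far from the others of their group, with *Smad7* at 17.9 CPM in replicate 2.

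Around the 10 members, 79 genes of the pathway on 5 lists were all tested, and edgeR called 0 of them for CRE in either genotype and in the mean CRE response. At an unadjusted p under 0.05 they were 6, 4 and 14 of 79, beside the 9.36%, 6.48% and 11.1% of all genes given above, and DESeq2 called 2, 1 and 4, beside 1.98%, 1.23% and 3.59%. With the replicate block edgeR called 6 in control cells, 7 in knockout cells and 15 in the mean CRE response (5 higher and 10 lower), beside 3.63%, 2.13% and 6.59% of genes. Leaving out 1 pair lowered these to at most 1, to 1 and to 7 to 12. Their median log2 fold change in the mean CRE response was 0.01. For loss of AhR edgeR called 0 with PBS (13 at an unadjusted p under 0.05, beside 8.37% of genes, and 3 by DESeq2, beside 1.18%), 1 lower with CRE and 3 lower in the mean deletion effect, beside 0.150%, 0.170% and 0.631% of genes. With CRE and in the mean deletion effect 8 and 14 had an unadjusted p under 0.05, beside 5.95% and 9.93% of genes, and DESeq2 called 4 and 6, beside 0.844% and 2.53%. In the interaction edgeR called 0, with or without the block, with 4 at an unadjusted p under 0.05 (beside 3.70% of genes) and 0 by DESeq2 (beside 0.112%). With the libraries of a pair summed, edgeR called 0 of 79 in the mean deletion effect, beside 0.0781% of genes. The 3 calls there were thus lost, and 10 had an unadjusted p under 0.05, beside 5.26% of genes. On the list of 12 co-receptors and receptor regulators the gene called without the block was *Cd109*, which encodes a membrane co-receptor that restrains TGF-β signaling. It had 15.5, 11.1 and 14.0 CPM with PBS and 19.9, 14.4 and 17.4 CPM with CRE in control cells. In knockout cells it had 6.08, 9.12 and 8.36 CPM with PBS and 5.33, 8.20 and 6.31 CPM with CRE. All 6 knockout libraries lay below all 6 control libraries. The log2 fold change was −1.38 with CRE (edgeR adjusted p = 0.0429) and −1.08 in the mean deletion effect (edgeR adjusted p = 0.0108). Leaving out any 1 of the 6 libraries compared took the adjusted p of the former above 0.05 (edgeR, 0.0564 to 0.221), and leaving out any 1 of 12 kept that of the latter below it (edgeR, 0.0128 to 0.0397). Without all 4 libraries of replicate 1 the mean deletion effect of *Cd109* was −0.83 (edgeR adjusted p = 0.110), and with the libraries of a pair summed it was −1.09 (edgeR adjusted p = 0.331). With the replicate block 1 of the 12 was called in knockout cells and in the mean CRE response, *Dab2*, an adaptor protein gene, lower by −0.59 and −0.47 (edgeR adjusted p = 0.0337 and 0.0103 with the block). The former was lost without any 1 pair and the latter held.

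Of 18 TGF-β target genes, 2 were called lower in the mean deletion effect, the basement membrane collagen genes *Col4a1* (log2 fold change −0.49, edgeR adjusted p = 0.00940) and *Col4a2* (−0.46, edgeR adjusted p = 0.0408), beside 0.631% of genes. In that contrast 8 of 18 had an unadjusted p under 0.05, beside 9.93% of genes, and DESeq2 called 4, beside 2.53%. *Col4a1* had 730, 769 and 806 CPM with PBS and 574, 750 and 718 CPM with CRE in control cells, and 569, 561 and 623 CPM with PBS and 476, 446 and 443 CPM with CRE in knockout cells. The genotypes did not overlap within a treatment. With the libraries of a pair summed neither was called (edgeR adjusted p = 0.287 for *Col4a1* and 0.591 for *Col4a2*). In the fit of 12 libraries the *Col4a1* call held without any 1 of them (edgeR adjusted p 9.2e-04 to 0.0360), while the *Col4a2* call was lost in 9 of 12 such fits (edgeR, up to 0.115) and held without replicate 1 of CRE-treated control cells (0.0127), replicate 2 of PBS-treated knockout cells (0.0481) and replicate 2 of CRE-treated knockout cells (0.0497). The target list as a whole had a median log2 fold change of 0.02 in the mean deletion effect, against −0.01 over all genes tested, with 10 genes above 0 and 8 below. Its most abundant genes per length were *Cdkn1a*, a cell cycle inhibitor (mean 324 FPKM), and *Ccn1*, a matricellular protein gene (mean 252 FPKM), and edgeR called neither in any contrast without the replicate block. In the mean CRE response edgeR called 0 of 18 targets without the block (6 at an unadjusted p under 0.05, beside 11.1% of genes, and 2 by DESeq2, beside 3.59%). With the block it called 8 of 18, 6 lower and 2 higher, beside 6.59% of genes. Fibroblast and smooth muscle markers, which share *Col1a1* with this list, moved with these targets: 9 of 10 had a negative log2 fold change (median −0.11 against −0.00 over all genes tested), their sums given above were lower with CRE in 5 of 6 pairs, and the block called 3 lower, of which 1 held without any 1 pair. Without the block edgeR called 0 of these markers, with 0 at an unadjusted p under 0.05 and 0 by DESeq2, and their part in the target genes was not tested. Of the 8 target genes called with the block, 4 held without any 1 pair. They were *Ccn2*, *Fn1* and *Ccn1* lower (log2 fold change −0.48, −0.40 and −0.21, edgeR adjusted p = 0.00180, 0.00721 and 0.00653 with the block) and *Cdkn1a* higher (0.19, edgeR adjusted p = 0.00539 with the block). The block also called *Ccn1* in control and in knockout cells (edgeR adjusted p = 0.0435 and 0.0405), which was lost without any 1 pair, and *Cdkn1a* in knockout cells (edgeR adjusted p = 0.0157), which was lost without 2 of 3 pairs. *Ccn2* was called lower in control cells (edgeR adjusted p = 0.0117), lost without 2 of 3 pairs, and in knockout cells (0.0184), lost without any 1 pair. *Fn1* and *Col4a2* were called lower in knockout cells (edgeR adjusted p = 0.0355 and 0.0452), and both were lost without any 1 pair. DESeq2 called *Ccn1* in the mean deletion effect (log2 fold change 0.30, adjusted p = 0.0469). *Sphk1*, which makes the lipid sphingosine 1-phosphate, was chosen after its values were seen. It had 12.8, 13.0 and 12.2 CPM in PBS-treated control cells and 4.33 to 8.85 CPM in the other 9 libraries, and its interaction of genotype and CRE did not pass adjustment (log2 fold change 1.32, edgeR unadjusted p = 0.00195, adjusted p = 1.00). The block called *Sphk1* lower for CRE in control cells (log2 fold change −1.19, edgeR adjusted p = 0.0257), which was lost without any 1 pair.

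edgeR called 0 of 12 genes of latency and activation, 0 of 13 SMAD regulators and 0 of 24 genes of the activin and BMP branch in every one of the 7 contrasts without the replicate block. In the mean CRE response 3, 3 and 2 of them had an unadjusted p under 0.05, beside 11.1% of genes, DESeq2 called 0, 0 and 2, beside 3.59%, and the block 2, 2 and 2, beside 6.59%. No contrast had more, apart from the DESeq2 calls on the list of latency and activation: *Itgav* for CRE in control cells (log2 fold change 0.45, DESeq2 adjusted p = 0.0141), and *Thbs1* between genotypes with CRE (−0.45, DESeq2 adjusted p = 0.0347) and in the mean deletion effect (−0.32, DESeq2 adjusted p = 0.0143), beside 1.98%, 0.844% and 2.53% of genes. edgeR called neither (adjusted p = 0.174 for *Itgav*, 0.380 and 0.157 for *Thbs1*). On the same list the block called *Ltbp1* lower in the mean CRE response (log2 fold change −0.41, edgeR adjusted p = 0.00611 with the block), which held without any 1 pair. It also called *Ltbp1* lower in control cells (edgeR adjusted p = 0.0439), lost without any 1 pair, and in knockout cells (0.0344), lost without 2 of 3 pairs. Latent TGF-β has to be activated, and the activators most abundant per length were thrombospondin 1 (*Thbs1*, mean 141 FPKM) and the integrin subunit gene *Itgb6* (mean 22.1 FPKM). *Smurf1*, a ubiquitin ligase for SMADs (mean 27.1 FPKM), and the corepressor *Ski* (mean 22.2 FPKM) led the SMAD regulators, and *Id1* and *Id2*, targets of BMP signaling, led the activin and BMP branch (mean 48.0 and 43.8 FPKM). *Strap*, a receptor-associated protein gene, led the co-receptors and receptor regulators with a mean of 65.9 FPKM. It was followed by *Fkbp1a*, an inhibitor of the type I receptor (mean 56.3 FPKM), which fell into separate levels, with 105 to 141 CPM in 4 libraries and 273 to 330 CPM in the other 8.

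The genes whose level over the 12 libraries was most like that of a ligand were found by Pearson's r of log2 CPM among the 20612 genes tested, as a description. For *Tgfb2* they were *Bid* (r = 0.977), *Mcc* (0.962), *Litaf* (0.929), *Topbp1* (0.925) and *Fgd3* (0.920). For *Tgfb3* they were *Wdr74* (r = 0.971), *Tmod1* (0.960), the AT1 marker *Ager* (0.959), *Lgi3* (0.959) and *Mvk* (0.957). For *Tgfb1* they were *Arhgdib* (r = 0.962), *Dkk3* (0.949), *Sh3bp5* (0.942), *Plekho1* (0.941) and *Mmp10* (0.934). The libraries share treatment, genotype and culture, which all enter these values.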

How the data were processed

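RNA sequencing of 12 AT2 cell libraries was read from the combined table, whose values are the same as those of the 12 single tables. The authors made stranded mRNA libraries, aligned reads to GRCm38 with STAR and took the deposited count of each gene from Salmon, and how whole numbers and strand were handled is not stated. The authors also deposited an FPKM per gene. All 55450 gene IDs matched GENCODE M21, which gave symbols and positions. Counts were normalized with TMM and filtered with filterByExpr (minimum count 10) in edgeR 4.0.16 (R 4.3.3). A quasi-likelihood fit of 4 group means to all 12 libraries gave 7 contrasts: 4 comparisons, the mean CRE response, the mean deletion effect and the interaction, with Benjamini-Hochberg adjustment over all tested genes at 0.05. SE is the log2 fold change over the root of F. The rule of the study used limma 3.58.1 on log2 CPM (prior count 2), and the alternatives included DESeq2 1.42.0. Simulated counts were used to test how calls are counted.

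Whether replicate numbers pair libraries was checked by correlating deviations from group means over 14543 genes. Between CRE and PBS, same-numbered libraries had r of 0.729, 0.418 and 0.651 in control and 0.589, 0.542 and 0.325 in knockout cells, so the numbers were taken to pair them. Libraries of different number had r of −0.598 to 0.0327 in control and −0.465 to −0.0611 in knockout cells. Between genotypes the labels show only a shared number, and libraries were not taken as pairs. There same-numbered libraries had r of 0.420, 0.0416 and 0.106 with PBS and 0.413, −0.0286 and 0.0867 with CRE. Those of different number had r of −0.365 to 0.283 with PBS and −0.418 to 0.361 with CRE. Named genes are the 10 members, list genes called in any contrast without the block, the 2 of highest mean FPKM per list, and the 5 genes most like *Tgfb1*, *Tgfb2* and *Tgfb3*, besides label checks and markers. *Sphk1*, *Ccn2*, *Fn1*, *Dab2*, *Itgav* and *Ltbp1* were added after their values were seen. The members and lists were chosen with earlier results of these data known.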

Additional observations from a re-analysis of the deposited data

Results flagged for a closer look

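*Tgfb1* was lower with CRE in 3 of 3 pairs of control libraries and higher in 3 of 3 pairs of knockout libraries, so the pairs of both genotypes went in opposite directions. The share of all genes tested with such a pattern was not counted. The log2 ratios of CRE to PBS within pairs were −0.13, −0.09 and −0.01 in control cells and 0.20, 0.16 and 0.14 in knockout cells. The interaction was a log2 fold change of 0.25 (95% interval −0.37 to 0.87) and did not pass (edgeR unadjusted p = 0.386, adjusted p = 1.00). With the replicate block it was 0.24 (edgeR unadjusted p = 0.0163, adjusted p = 0.507).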

How the results depend on the processing

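The 8 libraries of replicates 2 and 3, the summed pairs and leaving out pairs with the replicate block were chosen after seeing the data. Where a value differed, the cause was not tested.

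Members called for CRE in control cells went from 0 to 2 with DESeq2, 2 by the rule of the study and 2 with the replicate block, and in knockout cells from 0 to 1, 1 and 2. Between genotypes the rule of the study called 1 with PBS, 1 with CRE and 1 in the mean deletion effect, where DESeq2 called 1. In the mean CRE response the 2 members became 1 with no filter on low counts, 1 with log2(FPKM + 1) in limma and 0 in the 8 libraries. Leaving out 1 library gave 0 to 2 there and 0 to 0 in the other 6 contrasts. With the block, leaving out 1 pair gave 2 to 2 in control cells, 1 to 2 in knockout cells and 2 to 4 in the mean CRE response.

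Genes called with DESeq2 were 409 and 254 for CRE in control and knockout cells, 243 and 174 between genotypes with PBS and CRE, 740 in the mean CRE response, 522 in the mean deletion effect and 23 in the interaction. By the rule of the study they were, in the same order, 848, 696, 846, 705, 828, 847 and 475. The block within genotype gave 748, 439 and, in the mean CRE response, 1358. A block within treatment, whose libraries share only a number by the labels, gave 15 with PBS, 22 with CRE and 65 in the mean deletion effect. The fit of only the 6 libraries compared gave 13 for CRE in knockout cells and 15 between genotypes with PBS. Summing each pair gave 16 in the mean deletion effect. The 8 libraries gave 19 between genotypes with CRE, 64 in the mean deletion effect and 4 in the interaction. Leaving out 1 library gave 19 to 47, 23 to 62, 15 to 26, 21 to 30, 125 to 219, 78 to 110 and 0 to 2 in the 7 contrasts.

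*Tgfb2* and *Tgfb3* kept their direction in the mean CRE response in all 12 fits without 1 library (log2 fold change 0.60 to 0.76 and −0.64 to −0.48) and in the 8 libraries (edgeR adjusted p = 0.108 and 0.126). None of the log2 fold changes that turned was called. Between genotypes with PBS, *Tgfbr3* had 0.06 with limma under either rule, 0.02 with log2(FPKM + 1), 0.05 with the block within treatment and 0.80 in the 8 libraries. For CRE in knockout cells *Tgfbr1* had −0.01 with library size alone and −0.02 with log2(FPKM + 1). In the 8 libraries *Smad2* had 0.03 for CRE in control cells and *Smad4* 0.06 in knockout cells. Between genotypes they gave *Tgfb1* 0.07 and *Tgfbr2* −0.01 with PBS, *Tgfbr3* 0.34 and *Smad3* −0.01 with CRE, and *Tgfbr2* −0.07 and *Tgfbr3* 0.57 in the mean deletion effect.

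Leaving out 1 library turned these (lowest to highest). For CRE in control cells they were *Tgfb1* −0.27 to 0.14, *Tgfbr3* −0.14 to 1.12, *Smad2* −0.04 to 0.05 and *Smad7* −0.14 to 0.03. In knockout cells they were *Tgfbr1* −0.10 to 0.12, *Tgfbr3* −0.17 to 0.60, *Smad3* −0.01 to 0.10, *Smad4* −0.09 to 0.04, *Smad7* −0.10 to 0.54 and *Sphk1* −0.08 to 0.35. Between genotypes with PBS they were *Tgfb1* −0.21 to 0.12, *Tgfb3* −0.06 to 0.21, *Tgfbr3* −0.49 to 0.75, *Smad2* −0.11 to 0.01 and *Smad7* −0.52 to 0.13. With CRE they were *Tgfbr1* −0.09 to 0.14, *Tgfbr3* −0.52 to 0.26, *Smad3* −0.01 to 0.10, *Smad4* −0.10 to 0.04 and *Smad7* −0.00 to 0.17. In the mean CRE response they were *Tgfb1* −0.05 to 0.15 and *Smad7* −0.09 to 0.24. In the mean deletion effect they were *Tgfb1* −0.03 to 0.13, *Tgfbr2* −0.02 to 0.03, *Tgfbr3* −0.32 to 0.30, *Smad2* −0.02 to 0.04 and *Smad7* −0.21 to 0.11. The blocked interaction of *Tgfb2* ran from −0.02 to 0.06 without 1 pair.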
